A study of Mus musculus with 12 samples.

Results

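The genes described here are 10 genes of the naive state of mouse embryonic stem cells, Klf2, Klf4, Klf5, Esrrb, Tbx3, Tfcp2l1, Zfp42, Nr0b1, Nr5a2 and Tcl1. They were taken by name: every non-control probe whose gene name in the scanner files is one of them, or an older spelling of it (Tcfcp2l1 for Tfcp2l1), was used. That gave 18 probes of 41174 on the array, 17 of which passed the filter on dim probes, and 10 of the 17729 genes tested. All 10 genes were well above background on all 12 arrays with the probe that represents them. The cells are embryonic stem cells of mouse strain 129, in 6 groups of 2 arrays. Undifferentiated cells carry titles that name LIF, the cytokine that holds mouse embryonic stem cells in self-renewal. The other groups are EB at days 1, 3 and 4 and ML at days 1 and 3, read here as embryoid bodies, which are aggregates grown in suspension, and as monolayer cultures on a dish. The sources used here name neither the cell line nor the media nor any feeder cells, and no genetic change or drug is named for any group. The 2 samples of a group are labelled clone #1 and clone #2 and came from separate experiments by different people. The p-values measure only the spread between such samples, pooled over the groups.

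The naive state is the ground condition of the pre-implantation epiblast, and mouse embryonic stem cells hold it through a network of transcription factors that activate each other. LIF acts through its receptor on STAT3, which switches on Klf4 and Tfcp2l1, and through PI3K and AKT, which favour Tbx3, while Esrrb lies under the repressor Tcf7l1, and the Klf2 protein is destabilised by the MEK and ERK kinases. When the signals are withdrawn the network is taken down and cells pass into a formative, post-implantation-like state. Of the 10 genes, 9 encode transcription factors or cofactors of transcription, and Tcl1 encodes a coactivator of the AKT kinases.

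Values are log2 signals relative to the 75th percentile of their array, so 0 is the level of that percentile. They are given for each array, clone #1 first, and a level compares one gene between groups, not one gene with another. Changes are differences of these log2 values ± SE (limma, n = 2 arrays per group), and a gene was called where the Benjamini-Hochberg adjusted p over all 17729 genes was under 0.05. Fewer cells of a type and less RNA per cell cannot be told apart in such bulk samples. The undifferentiated arrays were alone on slide 1 and scan day 1 and the EB day 4 arrays alone on slide 4 and scan day 3, so for either group biology and slide or scan day cannot be told apart. The EB day 4 arrays were also the only ones read on scanner 2. They had the lowest shares of spots well above background, 53.8% and 52.1%. EB days 1 and 3 shared slide 2, ML days 1 and 3 shared slide 3, and all of these were scanned on scan day 2, so the change from day 1 to day 3 was measured within a slide in both formats. Embryoid bodies and monolayer of the same day lay on different slides, so their differences cannot be told apart from slide. Against the undifferentiated arrays, the E1A spike-in controls were brighter by a mean of 1.12 to 1.32 in EB and ML days 1 and 3 (10 of 10 probes in each) and by 0.02 in EB day 4. The 7 pluripotent cell markers were well above background on every array, and their summed level went from 84.8 and 89 (multiples of the 75th percentile) in undifferentiated cells to 29.1 and 27.6 in EB day 4. The summed level of 13 measured fibroblast markers of 15 listed was 173 and 61.7 on the undifferentiated arrays against 25.2 to 52.7 on the other 10 arrays, and all 13 were well above background in undifferentiated cells. S100a4 weighs most in the undifferentiated sums, with a log2 mean of 5.67 there and clone #1 2.23 above clone #2. Of the 13 markers, 9 to 12 had a lower mean in each other group than in undifferentiated cells.

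Sequences are shown where the data bear on them. The window of 250 bases before the start of Zfp42 (RefSeq, GRCm38.p6, chr8:43307010-43307259, minus strand) is shown because Zfp42 stands for the group of genes that moved together below. It holds 1 octamer, the POU factor motif ATGCAAAT, on the opposite strand 186 to 179 bases before the start. It also holds 1 CCACACCC, a motif bound by KLF factors, 75 to 68 bases before the start. Capitals mark both. The first Esrrb window (chr12:86360867-86361116, plus strand) is shown for its 1 STAT site, TTCNNNGAA, in capitals 178 to 170 bases before the start.
Zfp42: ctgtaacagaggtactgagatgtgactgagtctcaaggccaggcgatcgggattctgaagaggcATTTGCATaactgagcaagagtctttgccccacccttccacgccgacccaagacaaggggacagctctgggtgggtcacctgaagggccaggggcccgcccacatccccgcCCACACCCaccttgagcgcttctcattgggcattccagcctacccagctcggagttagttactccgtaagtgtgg
Esrrb: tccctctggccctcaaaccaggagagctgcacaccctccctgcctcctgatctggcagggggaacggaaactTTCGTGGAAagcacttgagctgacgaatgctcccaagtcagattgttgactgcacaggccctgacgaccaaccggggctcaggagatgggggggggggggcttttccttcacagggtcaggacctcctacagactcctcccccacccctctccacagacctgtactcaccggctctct
Both strands of the 250 bases before the start were searched in 32851 windows, and the motifs do not overlap each other in these sequences. The octamer was in 1.6% of all windows, CCACACCC in 3.2% and TTCNNNGAA in 7.02%. TCAAGGTCA, the extended single-receptor site of the Esrrb and Nr5a2 receptors, was in 0.387% of all windows and in 0 of the 10 windows of these genes. The table held windows for 8 of the 10 genes. Each of the other 3 motifs was found in the window of 1 gene alone, those just named, so no searched motif was shared by the genes that moved together.

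Probe sequences are shown for Zfp42, whose probe pair gave 1 course, and Klf2, whose pair gave 2. Stretches of 30 bases of each probe are shown as the files give them, with probe positions in the files' build, mm9. The Zfp42 probes (chr8:44380707-44380778 and chr8:44380667-44380726, minus strand) share 20 bases, in capitals, at the end of one and the start of the other.
Zfp42 probe 2, bases 31 to 60: ccttactataTGTGCTATTGAAGGGGATGG
Zfp42 probe used, bases 1 to 30: TGTGCTATTGAAGGGGATGGggacttttgc
The Klf2 probes (used, chr8:74843761-74843820, and second, chr8:74845137-74845196, plus strand) start 1376 bases apart and share no such overlap. Capitals mark G and C, which make up 78.3% of the used probe of 60 bases and 43.3% of the second.
Klf2 probe used, bases 1 to 30: aCaCGCCGCCGCtCaGCCCCGaCGGCCCCC
Klf2 probe 2, bases 1 to 30: tGtatataaGaCtatGaCCGattGtatttC
The median over all kept probes was 43.3% G and C and the 95th percentile 55.0%.

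The genes did not go down together. A gene's day of fall is the first day on which its mean lay at least 1 log2 unit below undifferentiated cells and stayed so on the later days of that format. By this measure, which is a description with no test, Klf4 and Tcl1 crossed the line on day 1 in embryoid bodies. Nr5a2, Nr0b1, Zfp42, Esrrb, Tfcp2l1 and Klf5 followed on day 3 and Klf2 on day 4. Tbx3 had no day of fall in embryoid bodies. Its change was -2.16 in EB day 1, past the line, but it did not stay there on the later days. In monolayer, Klf4, Esrrb, Tfcp2l1 and Tbx3 crossed it on day 1 and Tcl1, Nr5a2, Nr0b1 and Zfp42 on day 3, while Klf5 and Klf2 had not by day 3. The place of Klf2 depends on the probe. Its second probe crossed the line on day 3 in both formats (-2.39 in EB and -3.63 in ML). The line is smaller than the mean spike-in difference of 1.12 to 1.32 between the undifferentiated arrays and those of days 1 and 3, whose effect on the order was not tested. Several genes sat close to the line. Esrrb and Tfcp2l1 were 0.85 and 0.88 below undifferentiated cells in EB day 1 and 1.06 and 1.13 below in ML day 1, so their different days in the 2 formats rest on a gap within the spread. With a line of 2 log2 units, Tcl1 moved to EB day 3, Klf5 to EB day 4, and Esrrb and Tfcp2l1 to ML day 3, and Klf2 no longer crossed the line on any day.

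**Figure D1:**
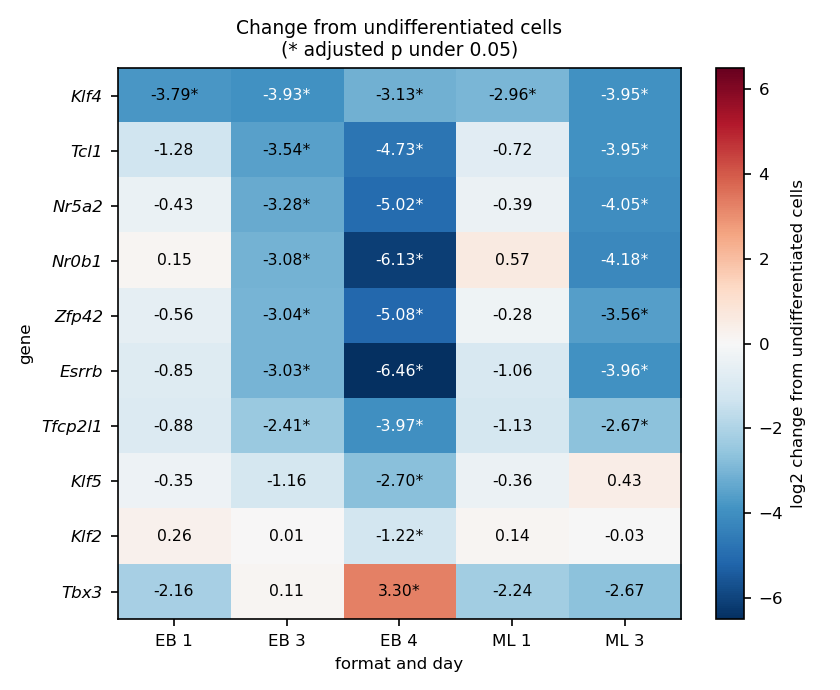
Log2 change of the 10 genes (rows, in order of the embryoid body day of their fall) from undifferentiated cells in EB days 1, 3 and 4 and ML days 1 and 3 (columns), as colour and number, with an asterisk where the limma adjusted p is under 0.05. Klf4 alone carries an asterisk on day 1, 7 genes do on day 3 in both formats, and Tbx3 is the only gene called higher, in EB day 4.

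On day 1, 1 of the 10 genes was called in each format, Klf4. The background was 13.4% of all genes called in EB day 1 against undifferentiated cells (5.39% lower, 7.98% higher) and 18% in ML day 1 (6.43% lower, 11.6% higher). The median change of the 10 genes was -0.71 in EB day 1 and -0.56 in ML day 1, against 0.09 and 0.13 over all genes. On day 3, 7 of 10 were called lower in embryoid bodies (background 23.7% called, 10.7% lower, 13% higher) and 7 in monolayer (23.5% called, 10.9% lower, 12.7% higher). In each comparison the genes called were Klf4, Tcl1, Nr5a2, Nr0b1, Zfp42, Esrrb and Tfcp2l1. The day 3 medians were -3.04 and -3.76, against 0.05 and 0.03 over all genes. In EB day 4, 9 genes were called lower and Tbx3 higher, in a comparison where 40.8% of all genes were called (22.1% lower, 18.8% higher). These 5 comparisons share the 2 undifferentiated arrays, and none of them is independent of the others. The EB day 3 count was 4 without EB day 3 clone #2, when Esrrb, Nr0b1 and Tfcp2l1 were no longer called.

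Klf4, a Krüppel-like zinc finger factor and a direct target of STAT3, was the earliest to be called (probe at chr4:55540833-55540892, minus strand). Its signal was 5.65 and 5.88 in undifferentiated cells, 2.16 and 1.78 in EB day 1, 1.86 and 1.81 in EB day 3 and 2.45 and 2.82 in EB day 4. In monolayer it was 2.68 and 2.94 on day 1 and 2.65 and 0.97 on day 3. Both undifferentiated arrays lay above all 10 others, which spread between 0.97 and 2.94. Klf4 fell 13.9-fold by EB day 1 (-3.79 ± 0.45, adjusted p = 0.00346), which left 7.21% of the undifferentiated signal. It fell 7.76-fold by ML day 1 (-2.96 ± 0.45, adjusted p = 0.0073), a call lost without ML day 1 clone #1 (-2.83, adjusted p = 0.0553). After day 1 no further change passed the test: day 3 differed from day 1 by -0.14 ± 0.45 in embryoid bodies (adjusted p = 0.902) and by -0.998 ± 0.45 in monolayer (adjusted p = 0.172). The undifferentiated array with the lower Klf4 was the one with the higher fibroblast marker sum, and without it the EB day 1 change was -3.91 (adjusted p = 0.00882).

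Genes of the LIF input fell on the same day. Of 8 listed genes of that input, 5 fell by EB day 1, 5 by ML day 1, and none was called higher. That is 62.5% in each, against 5.39% and 6.43% of all genes called lower. Their median change was -1.03 and -1.29, against 0.09 and 0.13 over all genes. By later days 6 (EB day 3), 4 (ML day 3) and 4 (EB day 4) of the 8 were called lower against undifferentiated cells. These are 75%, 50% and 50%, against 10.7%, 10.9% and 22.1% of all genes. Socs3, the feedback inhibitor of the receptor, changed by -3.81 ± 0.27 in EB day 1 and -3.75 ± 0.27 in ML day 1 (adjusted p = 0.00106 and 0.000628). Bcl3, a STAT3-induced cofactor of NF-kappa B, changed by -3.09 ± 0.26 and -2.88 ± 0.26, and the kinase gene Pim1 by -2.31 ± 0.31 and -1.71 ± 0.31. Some of these genes were higher again in monolayer. From ML day 1 to ML day 3, Junb (1.79 ± 0.42), Pim1 (1.43 ± 0.31) and Socs3 (1.06 ± 0.27) rose and Lifr, the LIF receptor, fell (-2.33 ± 0.43). The background there was 5.77% of all genes higher and 6.65% lower. From EB day 1 to EB day 3 none of the 8 was called (background 5.42%). The difference between the formats in this step was called for 0 of the 8 (background 0.243%). A difference between the formats is therefore not shown. Klf4 was not called from ML day 1 to ML day 3, and its ML day 3 arrays were 2.65 and 0.97, both below the ML day 1 arrays.

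**Figure D2:**
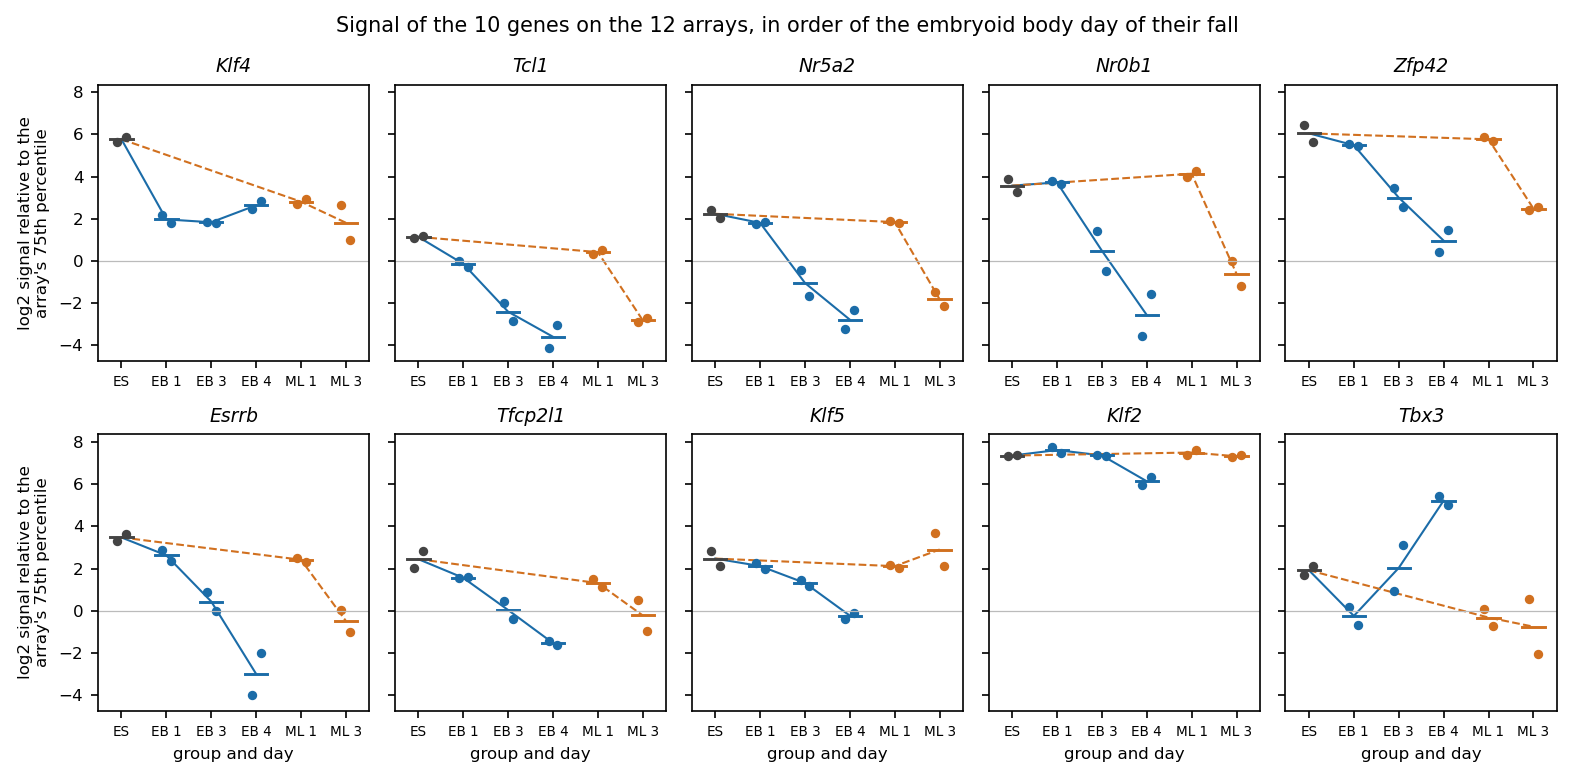
Log2 signal relative to the array's 75th percentile (vertical axis) of each of the 10 genes on the 12 arrays, by group (ES, undifferentiated cells; EB and ML with the day), dots for arrays, short bars for group means, solid lines for embryoid bodies and dashed lines for monolayer. Klf4 drops at once to between 0.97 and 2.94, and Nr5a2, Nr0b1 and Zfp42 have no called change on day 1 and drop by day 3. Klf2, by the used probe alone, stays near 7.4 until EB day 4, and Tbx3 climbs to 5.43 and 5.01 in EB day 4.

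Tcl1, which encodes an AKT coactivator and is an Oct4-dependent gene in these cells, stood between the early and the middle genes (chr12:106455424-106455483, minus strand). Its signal was 1.09 and 1.20 in undifferentiated cells, 0.02 and -0.29 in EB day 1, -1.98 and -2.82 in EB day 3, -4.13 and -3.05 in EB day 4, 0.31 and 0.52 in ML day 1 and -2.90 and -2.72 in ML day 3. No day 1 array overlapped the undifferentiated arrays, but the change of -1.28 ± 0.37 in EB day 1 missed the threshold (adjusted p = 0.0523), as did the ML day 1 change of -0.72 ± 0.37 (adjusted p = 0.199). The EB day 1 change was called under 5 of 11 other settings, among them quantile normalization (adjusted p = 0.0447), and over all settings and left-out arrays its adjusted p ran from 0.0079 to 0.219. Tcl1 then fell between day 1 and day 3, with changes of -2.27 ± 0.37 in embryoid bodies (adjusted p = 0.0131) and -3.23 ± 0.37 in monolayer (adjusted p = 0.00161). The arrays of the different days did not overlap in either format.

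Nr5a2, Nr0b1 and Zfp42 had no called change on day 1 (changes from -0.56 to 0.57) and fell between day 1 and day 3. Nr5a2, an orphan nuclear receptor that helps to maintain Oct4 in the epiblast, had a signal of 2.42 and 2.05 before differentiation, 1.77 and 1.83 in EB day 1 and 1.88 and 1.81 in ML day 1 (chr1:138740903-138740962, minus strand). By day 3 it was at -0.44 and -1.64 in embryoid bodies and -1.48 and -2.16 in monolayer, and in EB day 4 at -3.22 and -2.34. Every Nr5a2 day 1 array lay below both undifferentiated arrays, and every day 3 and day 4 array lay below every earlier array. Within a slide, the day 3 minus day 1 change was -2.85 ± 0.42 in embryoid bodies (adjusted p = 0.00911) and -3.66 ± 0.42 in monolayer (adjusted p = 0.00162).

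Nr0b1 is an X-linked gene for an orphan receptor without the usual DNA-binding domain, which represses other nuclear receptors, Nr5a2 and Esrrb among its partners (chrX:83441169-83441228, plus strand). Its undifferentiated arrays gave 3.89 and 3.25, the EB day 1 arrays 3.81 and 3.63 and the ML day 1 arrays 3.98 and 4.28. The ML day 1 arrays were thus both above the undifferentiated ones, with no call (adjusted p = 0.615). On day 3 it read 1.43 and -0.45 in embryoid bodies and -0.02 and -1.20 in monolayer, and in EB day 4 -3.54 and -1.58. The drop from ML day 1 to ML day 3 was -4.74 ± 0.73 (adjusted p = 0.00532), that from EB day 1 to EB day 3 -3.23 ± 0.73 (adjusted p = 0.037), and that from EB day 3 to EB day 4 -3.05 ± 0.73 (adjusted p = 0.0291). The clones were farthest apart in EB day 3 and EB day 4, where clone #2 was the lower one on EB day 3 and the higher one on EB day 4.

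Zfp42, a zinc finger factor of the YY1 family and a standard marker lost when the epiblast implants, had an octamer and a KLF motif in the window printed above. Its signal was 6.43 and 5.65 before differentiation, 5.54 and 5.42 in EB day 1 and 5.86 and 5.66 in ML day 1, so that the EB day 1 arrays lay below both undifferentiated arrays and the ML day 1 arrays between them. It reached 3.46 and 2.54 in EB day 3, 2.40 and 2.56 in ML day 3 and 0.44 and 1.48 in EB day 4. Zfp42 changed from day 1 to day 3 by -2.48 ± 0.41 in embryoid bodies (adjusted p = 0.0132) and -3.28 ± 0.41 in monolayer (adjusted p = 0.00235), and again by -2.04 ± 0.41 from EB day 3 to EB day 4 (adjusted p = 0.0167). The second probe, which shares 20 bases with the used one, gave -2.76 ± 0.40 against undifferentiated cells in EB day 3 and -5.26 ± 0.40 in EB day 4, next to -3.04 ± 0.41 and -5.08 ± 0.41 for the used probe.

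Esrrb, an orphan nuclear receptor, and Tfcp2l1, a factor of the CP2 family that STAT3 induces, read lower from day 1 on, with called changes later. Esrrb (chr12:87862389-87862448, plus strand) read 3.30 and 3.65 in undifferentiated cells, 2.87 and 2.38 in EB day 1, 0.90 and -0.02 in EB day 3, -3.97 and -2.01 in EB day 4, 2.51 and 2.33 in ML day 1 and 0.0357 and -0.999 in ML day 3. No 2 successive days overlapped, though neither day 1 change was called (adjusted p = 0.36 in EB and 0.241 in ML). Esrrb changed from ML day 1 to ML day 3 by -2.90 ± 0.60 (adjusted p = 0.0169) and from EB day 3 to EB day 4 by -3.43 ± 0.60 (adjusted p = 0.0103), both called, while its -2.18 ± 0.60 from EB day 1 to EB day 3 was not (adjusted p = 0.0734). Its EB day 4 change from undifferentiated cells was -6.46 ± 0.60 (adjusted p = 0.000117). Over the processing settings tried, this change ran from -6.57 to -4.30. The step from EB day 3 to EB day 4 ran from -3.43 to -1.50, so the size of both is uncertain. A second Esrrb probe (chr12:87856069-87856128) was well above background on neither array of EB day 3, ML day 1 or ML day 3, and by it undifferentiated cells were at least 4.45-fold higher than ML day 3 (adjusted p = 0.0234 over all probes). This probe was not called against undifferentiated cells in EB day 1, ML day 1, EB day 3 or EB day 4. Its EB day 4 change was -2.14 ± 0.97 (limma adjusted p = 0.106 over all probes).

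Tfcp2l1 had 4 probes, and the used one (chr1:120581646-120581705, plus strand) read 2.05 and 2.84 in undifferentiated cells, 1.55 and 1.58 in EB day 1, 0.45 and -0.38 in EB day 3 and -1.43 and -1.63 in EB day 4. In monolayer it read 1.49 and 1.13 on day 1 and 0.53 and -0.97 on day 3. All 10 later arrays lay below both undifferentiated arrays. The change passed the test by day 3, at -2.41 ± 0.48 in embryoid bodies (adjusted p = 0.00841) and -2.67 ± 0.48 in monolayer (adjusted p = 0.00561), but not between day 1 and day 3 (adjusted p = 0.11 and 0.0683). All 4 probes gave a called fall by EB day 3, where 2 of them were no longer well above background and put undifferentiated cells at least 7.15-fold and 4.25-fold higher. Here the lower bound is the bright group against the lowest signal well above background. The probes differed on day 1, where 1 of them, at chr1:120577122-120577181, was called in EB day 1 with 1 of 2 arrays well above background there (-2.50 ± 0.53, adjusted p = 0.0187 over all probes), and the other 3 ranged from -0.65 to -1.57 without a call. The same probe was called in ML day 1 (-2.74 ± 0.53, adjusted p = 0.0126 over all probes), where it was well above background on neither array and undifferentiated cells were at least 5.75-fold higher.

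Within a slide, 4 genes fell from EB day 1 to EB day 3 (Nr0b1, Nr5a2, Tcl1 and Zfp42; background 5.42% called, 2.33% lower, 3.09% higher) and 5 from ML day 1 to ML day 3 (Esrrb, Nr0b1, Nr5a2, Tcl1 and Zfp42; background 12.4% called, 6.65% lower, 5.77% higher). The embryoid body count dropped to 0 without EB day 1 clone #1, without EB day 1 clone #2 or without EB day 3 clone #2, and stayed at 4 without EB day 3 clone #1. The changes themselves kept their direction, between -1.85 (Tcl1) and -4.17 (Nr0b1) over these 4 genes. The monolayer count was 3 without ML day 1 clone #2, 4 without ML day 1 clone #1, and 7 and 6 without the first and second ML day 3 clone. From EB day 3 to EB day 4, across slides, scan days and scanners, 5 genes fell (Esrrb, Klf2, Nr0b1, Nr5a2 and Zfp42) and Tbx3 rose (background 12.7% called, 8.83% lower and 3.9% higher). That count of 6 was 0 without EB day 3 clone #1 and 1 (Esrrb) without EB day 4 clone #1.

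Klf5, the Krüppel-like factor that is also active in the trophectoderm, was, with Tbx3, 1 of 2 genes whose monolayer and embryoid body arrays did not overlap on day 3. The probe (chr14:99702656-99712388, plus strand, 60 bases in pieces over 9733) read 2.83 and 2.11 in undifferentiated cells, 2.26 and 1.98 in EB day 1, 1.44 and 1.20 in EB day 3 and -0.38 and -0.08 in EB day 4. In monolayer it read 2.19 and 2.04 on day 1 and 3.66 and 2.14 on day 3, so that the first ML day 3 clone was above every other array and the second overlapped the undifferentiated cells. Klf5 fell by EB day 4 (-2.70 ± 0.44, adjusted p = 0.00154), with an EB day 3 change of -1.16 ± 0.44 that was not called (adjusted p = 0.0874). EB day 3 minus ML day 3 was -1.59 ± 0.44 (adjusted p = 0.0967), and the day effect of ML minus that of EB was 1.59 ± 0.62, with a 95% interval of 0.18 to 3.00 (adjusted p = 0.418). Neither was called. Both were called without ML day 3 clone #2 (day effect difference 2.35, adjusted p = 0.0407), while without clone #1 the difference was 0.83 (adjusted p = 0.554), so 1 array decides its size. The keratins Krt8 and Krt18 summed to 329 and 156 multiples of the 75th percentile on the ML day 3 clones, against 119 and 226 in EB day 3, and their part in the result was not tested. The 6 other measured trophoblast markers summed to 2.70 and 1.54 in ML day 3, below the 5.53 and 4.73 of undifferentiated cells. A second Klf5 probe was well above background in undifferentiated cells alone and gives only a bound elsewhere: undifferentiated cells were at least 1.68-fold higher than EB day 3 (adjusted p = 0.00171 over all probes).

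Klf2, the Krüppel-like factor held down by ERK signalling, gave 2 different courses depending on the probe. The used probe read 7.31 and 7.39 in undifferentiated cells, 7.76 and 7.46 in EB day 1, 7.39 and 7.33 in EB day 3, 7.38 and 7.61 in ML day 1 and 7.27 and 7.37 in ML day 3. The EB day 1 arrays lay above both undifferentiated arrays without a call (adjusted p = 0.424), and EB day 4 lay below all of these 10 arrays at 5.94 and 6.33 (-1.22 ± 0.21, adjusted p = 0.00203). The second probe read 6.77 and 7.07 before differentiation, 6.07 and 6.08 in EB day 1, 5.24 and 3.81 in EB day 3 and 1.05 and 2.67 in EB day 4. In monolayer it read 6.11 and 5.99 on day 1 and 3.91 and 2.68 on day 3. With this probe every step down was free of overlap, and it was called lower in EB day 3 (-2.39 ± 0.61, adjusted p = 0.0211 over all probes), in ML day 3 (-3.63 ± 0.61, adjusted p = 0.00398) and in EB day 4 (-5.06 ± 0.61, adjusted p = 0.00034). By the second probe Klf2 would cross the line of 1 log2 unit on day 3 in both formats. With it in place of the used probe, a choice made after seeing the data, the day 3 counts rose from 7 to 8 of 10 in both formats, and the count from ML day 1 to ML day 3 rose from 5 to 6. The used probe is the GC-rich one printed above, and which of the probes reads the Klf2 transcript better was not tested.

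**Figure D3:**
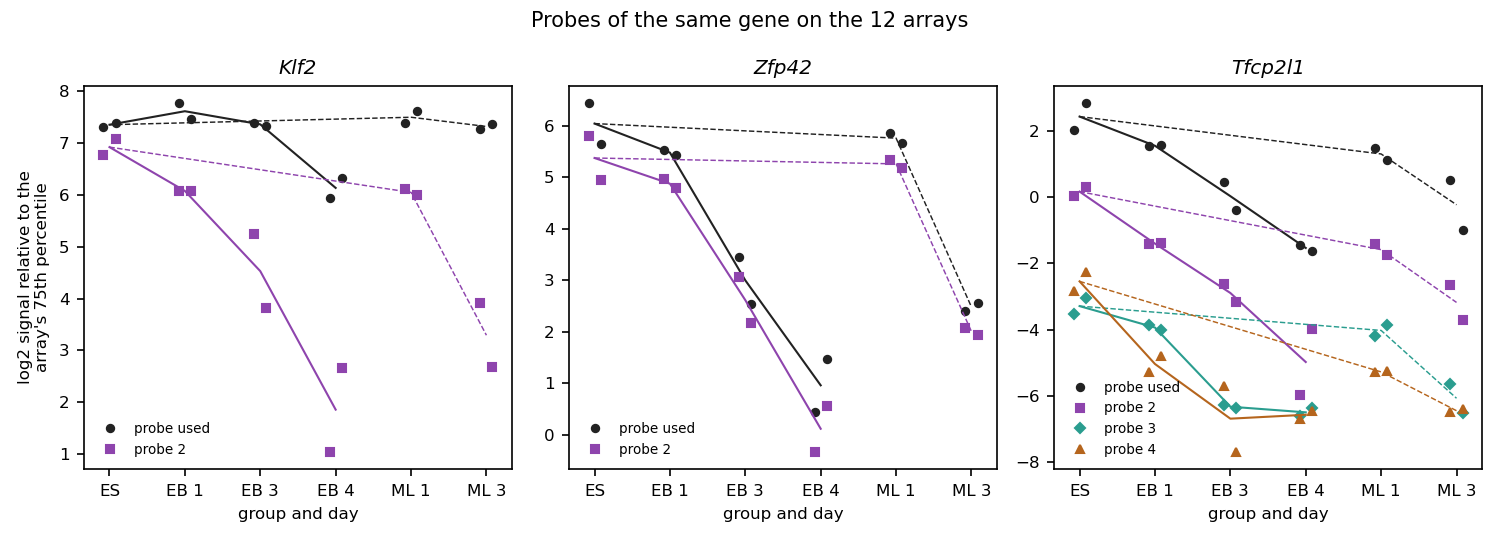
Log2 signal relative to the array's 75th percentile (vertical axis) of each kept probe of Klf2, Zfp42 and Tfcp2l1 on the 12 arrays, by group (ES, undifferentiated cells; EB and ML with the day), with lines through group means (solid for embryoid bodies, dashed for monolayer). The second Klf2 probe drops to 1.05 on the first EB day 4 clone, where the used probe is at 5.94, while the Zfp42 probes run in parallel.

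Tbx3, a T-box repressor that sustains self-renewal downstream of PI3K and AKT and also marks primitive endoderm and early cardiac mesoderm, ran against the others (chr5:120134473-120134532, plus strand). It read 1.71 and 2.12 in undifferentiated cells and 0.19 and -0.67 in EB day 1, then 0.93 and 3.14 in EB day 3 and 5.43 and 5.01 in EB day 4. In monolayer it read 0.08 and -0.71 on day 1 and 0.57 and -2.07 on day 3. All day 1 and ML day 3 arrays lay below the undifferentiated ones, the EB day 3 clones lay on either side of them, and both EB day 4 arrays lay above all others. Tbx3 rose by 3.30 ± 0.87 in EB day 4 against undifferentiated cells (adjusted p = 0.0151) and by 3.19 ± 0.87 against EB day 3 (adjusted p = 0.045). The lower values in EB day 1 (-2.16 ± 0.87, adjusted p = 0.125), ML day 1 (-2.24 ± 0.87, adjusted p = 0.103) and ML day 3 (-2.67 ± 0.87, adjusted p = 0.0542) were not called. Leaving out an array kept the EB day 4 rise between 3.09 and 3.51, but the adjusted p passed 0.05 without either EB day 4 clone (0.0755 and 0.0508) or without undifferentiated clone #1 (0.0691). The step from EB day 3 was lost without EB day 3 clone #1 (2.08, adjusted p = 0.278), without either EB day 4 clone (adjusted p = 0.167 and 0.15) in a fit of the compared groups alone (adjusted p = 0.0798) and with the clone number as a replicate block (adjusted p = 0.0556).

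Summed levels of markers of some other cell types also rose in embryoid bodies, but not in step with Tbx3. The primitive streak and extraembryonic endoderm sums were already high in EB day 3, where Tbx3 had changed by 0.11 ± 0.87 from undifferentiated cells. From EB day 3 to EB day 4 Tbx3 rose by 3.19 ± 0.87, while the primitive streak sums overlapped and the endoderm sum changed little. The summed level of the 11 primitive streak and mesoderm markers was 1.47 and 1.45 in undifferentiated cells, 6.39 and 2.95 in EB day 1, 85.7 and 124 in EB day 3 and 118 and 71.5 in EB day 4. It was 2.85 and 2.48 in ML day 1 and 16.5 and 15.8 in ML day 3. The sum of 12 measured extraembryonic endoderm markers of 14 listed was 13.6 and 11.3 before differentiation, 62.5 and 57 in EB day 3 and 65.9 and 65.5 in EB day 4. Of these 12, 8 had a higher mean in EB day 4 than in undifferentiated cells, among them Foxa2 (-1.46 to 4.92), which also marks definitive endoderm, and Gata6 (-1.80 to 3.14). The means of the visceral and parietal endoderm genes Amn (-0.94 to -2.55), Cubn (-1.91 to -3.16), Lama1 (-0.80 to -1.51) and Hnf4a were lower, and Hnf4a was not well above background on either EB day 4 array. Among the 11 primitive streak and mesoderm markers, 10 had a higher mean in EB day 4, and Cdx1 was not well above background there. The sum of 8 measured trophoblast markers of 10 listed was 31.2 and 45.7 in undifferentiated cells and 297 and 376 in EB day 4, but Krt8 and Krt18, keratins of simple epithelia in general, made up 281 and 353 of the latter. The other 6 summed to 5.53 and 4.73 in undifferentiated cells and 16.3 and 22.2 in EB day 4, where Cdx2, Hand1 and Plac1 had higher means and Tfap2c, Ascl2 and Prl3d1 lower ones. The fibroblast sum was no higher in EB day 4 (35.3 and 40.7) than in undifferentiated cells. The clone with the higher Tbx3 had the higher primitive streak sum in EB day 3 (clone #2) and in EB day 4 (clone #1). It had the higher extraembryonic endoderm sum in EB day 4 only, and the higher trophoblast and fibroblast sums in EB day 3 only. With 2 clones per group, such an order carries no test. The part of these cell types in the rise of Tbx3 was not tested.

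**Figure D4:**
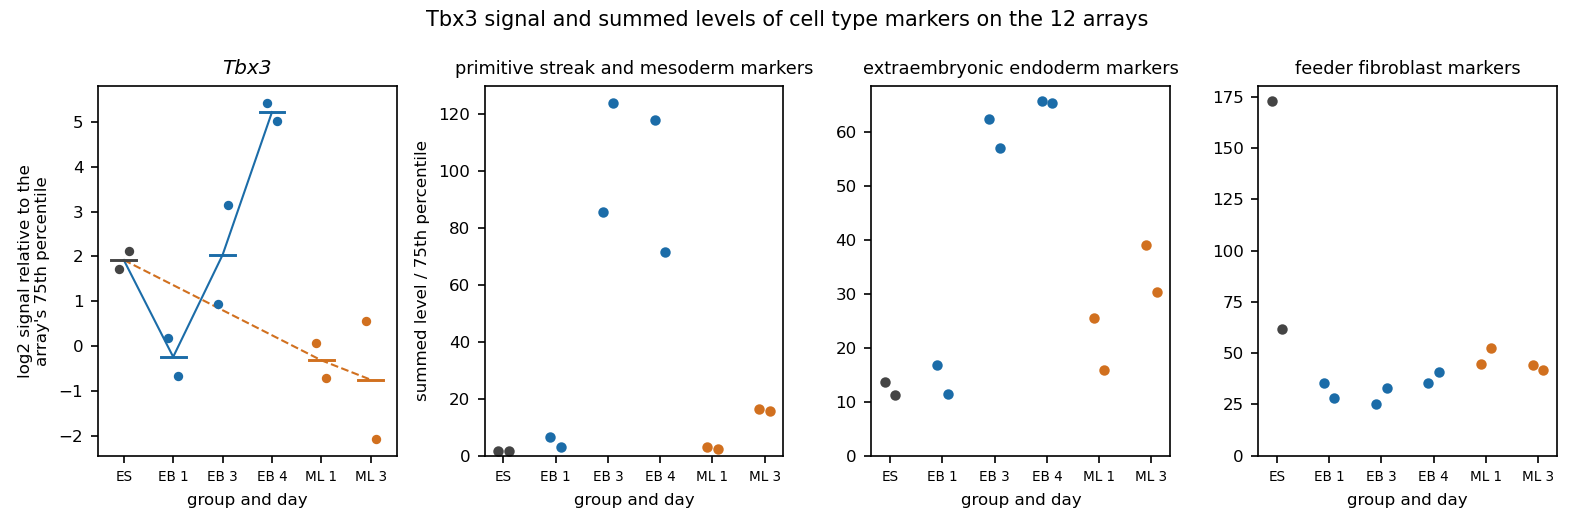
Tbx3 log2 signal relative to the array's 75th percentile (first panel) and the summed levels, in multiples of that percentile, of primitive streak and mesoderm, extraembryonic endoderm and feeder fibroblast markers (other panels) on the 12 arrays, by group (ES, undifferentiated cells; EB and ML with the day), dots for arrays. Tbx3 and the first 2 marker sums are high in EB day 4, the sums already in EB day 3. The fibroblast sum is highest on the first undifferentiated array, at 173.

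Embryoid bodies and monolayer were compared directly on the same day, across slides, so format and slide cannot be told apart in these differences. On day 1, 0 of the 10 genes were called (limma, 0 at an unadjusted p under 0.05; background 0.0677% called, 0.062% lower in EB, 0.00564% higher), and the 95% intervals of the differences lay within -2.06 and 2.05. On day 3, 0 of 10 were called (background 3.32% called, 1.7% lower in EB, 1.61% higher), with 2 at an unadjusted p under 0.05, Klf5 and Tbx3. Tbx3 was 2.78 ± 0.87 higher in embryoid bodies, with a 95% interval of 0.81 to 4.75 (adjusted p = 0.134). For Zfp42, Nr5a2, Nr0b1, Tcl1 and Esrrb, EB minus ML on day 3 ran from 0.41 ± 0.37 (Tcl1) to 1.10 ± 0.73 (Nr0b1), all positive, and all with intervals that include 0. The difference between the formats in the step from day 1 to day 3 gave 0 calls of 10 (background 0.243% called, 0.152% lower in ML, 0.0902% higher), with 1 at an unadjusted p under 0.05, Klf5. For Nr0b1 it was -1.51 ± 1.03, with an interval of -3.84 to 0.82, and for Tcl1 -0.96 ± 0.53, with -2.15 to 0.22.

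**Figure D5:**
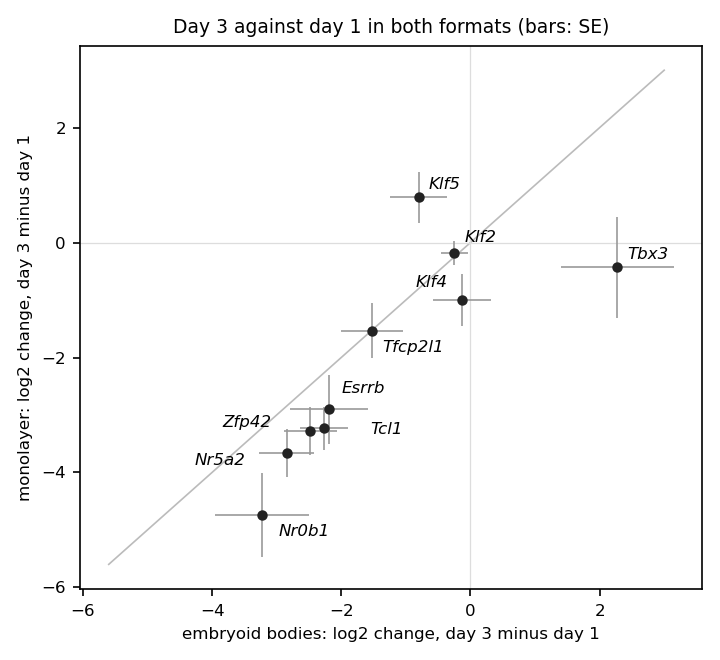
Log2 change from day 1 to day 3 in embryoid bodies (horizontal axis) and in monolayer (vertical axis) for the 10 genes, dots for the limma estimate and bars for its SE, with the line of equal change. Esrrb, Zfp42, Tcl1, Nr5a2 and Nr0b1 lie between -2.18 and -3.23 on the first axis and between -2.90 and -4.74 on the second, and Klf5 and Tbx3 lie apart.

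Across the 12 arrays, Zfp42, Nr5a2, Nr0b1, Tcl1, Esrrb and Tfcp2l1 had similar courses, with Pearson r between 0.906 (Tfcp2l1 with Nr0b1) and 0.990 (Zfp42 with Nr5a2). Klf4 followed none of the other genes closely, its r ranging from 0.01 (Klf2) to 0.60 (Tcl1), and Tbx3 ran against 8 of them, down to -0.82 (Klf2). These correlations describe 12 arrays that fall in 6 groups and share the days, and they carry no test. Among 14940 other named genes, those whose course over the 12 arrays was most like that of Zfp42 were Liph (r = 0.990), Acsbg3 (0.983), Manba (0.983), Rnf125 (0.983) and Calml4 (0.982). The course of Klf4 was most like those of Ampd3 (0.958), Zbtb24 (0.952), Adgrd1 (0.949), Vcam1 (0.947) and Tie1 (0.947). The mean of the 10 genes, each centred and scaled, was most like Triml1 (0.987), Olfr985 (0.979), Mov10 (0.975), Dpys (0.972) and Fbxo15 (0.972).

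Other genes of the naive state fell in the same cultures. Of 15 listed, 13 were measured. By EB day 1, 3 had fallen (Jam2, -1.67 ± 0.34; Nanog, -1.57 ± 0.37; Fbxo15, -1.42 ± 0.40) and by ML day 1, 2 had (Nanog, -1.67 ± 0.37; Jam2, -1.48 ± 0.34). These are 23.1% and 15.4% of the measured genes, against 5.39% and 6.43% of all genes called lower. By day 3 the count was 11 in embryoid bodies and 9 in monolayer, and in EB day 4 all 13 measured genes were called lower, with none called higher on any of these days. Of all genes, 10.7%, 10.9% and 22.1% were called lower in these 3 comparisons. Nanog, the homeobox factor at the centre of the network, fell by day 1 and again from EB day 3 to EB day 4 (-2.20 ± 0.37). Its mean was 3.23 ± 0.13 (SD, n = 2) in undifferentiated cells, 1.66 ± 0.41 in EB day 1, 1.78 ± 0.54 in EB day 3 and -0.42 ± 0.21 in EB day 4. In ML day 3 it was 2.09 ± 0.65, and not called against undifferentiated cells, while Jam2 (-5.48 ± 0.34), the homeobox gene Gbx2 (-4.56 ± 0.78), the adhesion gene Pecam1 (-4.39 ± 0.64) and Fbxo15 (-3.72 ± 0.40) were. The undifferentiated Gbx2 arrays were far apart (mean 1.16 ± 1.84, SD, n = 2), so the size of its fall is uncertain. The list's median change by EB day 4 was -4.22, next to -4.35 for the 10 genes and -0.05 over all genes.

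Some genes that act against the naive state rose by day 1. Of 13 listed repressors and exit factors, all measured, 4 rose by EB day 1 (30.8%, against 7.98% of all genes) and 6 by ML day 1 (46.2%, against 11.6%). None was called lower, and the other 9 and 7 were not called. Their median change was 0.74 and 0.88, and by EB day 4 it was -0.15, with 2 called higher and 4 lower against undifferentiated cells. The EB day 4 counts are 15.4% and 30.8% of the list, against 18.8% and 22.1% of all genes. Zic2, a factor of the formative state, rose by 3.39 ± 0.29 and 2.92 ± 0.29, and Otx2, which redirects Oct4 to new enhancers, by 2.36 ± 0.28 and 1.95 ± 0.28. Pou3f1, a POU factor of the post-implantation epiblast, rose by 2.40 ± 0.48 and 2.33 ± 0.48. Dnmt3b, a de novo DNA methyltransferase, rose by 2.11 ± 0.55 in EB day 1, and Foxd3, which silences naive enhancers, by 2.54 ± 0.75 in ML day 1. The undifferentiated Foxd3 arrays were far apart (mean -1.20 ± 1.89, SD, n = 2), so the size of its rise is uncertain. From EB day 3 to EB day 4, while Nr0b1 and Zfp42 went on falling, 5 of the 13 fell as well: Foxd3 (-3.11 ± 0.75), Zic2 (-2.72 ± 0.29), Pou3f1 (-2.35 ± 0.48), Otx2 (-1.85 ± 0.28) and the ETS factor Etv5. That is 38.5% of the list, against 8.83% of all genes called lower in this step.

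Against undifferentiated cells, paralogs of the 10 genes were called about as often as all genes, or less. From EB day 3 to EB day 4, 23.8% of them were called (19% lower), against 12.7% of all genes (8.83% lower). Of 24 listed, 21 were measured, and by EB day 3 the counts were 1 higher and 3 lower, by ML day 3 also 1 and 3, and by EB day 4 2 higher and 6 lower. That is 19.0% of the measured paralogs on day 3 in either format and 38.1% in EB day 4, against 23.7%, 23.5% and 40.8% of all genes. In EB day 4, 28.6% of the paralogs were called lower, against 22.1% of all genes. Their median change by EB day 4 was -0.20. Klf3, a Krüppel-like repressor, changed by -2.56 ± 0.37, -2.30 ± 0.37 and -3.35 ± 0.37 in these groups, and Klf9 by -1.98 ± 0.47, -1.62 ± 0.47 and -3.24 ± 0.47. Tfcp2, the close relative of Tfcp2l1, changed by -2.34 ± 0.24 in ML day 1 and by 1.24 ± 0.24 from there to ML day 3. The size of both changes is uncertain, because the Tfcp2 mean in ML day 1 was -5.42. A Tfcp2l1 probe at -5.29 and -5.27 on those arrays was not well above background on either. Tbx2, the nearest relative of Tbx3, had a mean of -1.61 ± 0.27 (SD, n = 2) before differentiation, -1.11 ± 1.01 in EB day 3 and 1.81 ± 0.37 in EB day 4. It rose there by 3.42 ± 0.42 against undifferentiated cells (adjusted p = 0.000366). The Tcl1 neighbour Tcl1b2 changed by -2.20 ± 0.33 in EB day 4, to a dim mean of -4.88 ± 0.72 (SD, n = 2), so the size is uncertain. Tcl1b genes are close copies of each other, and reads of their probes are uncertain to that extent.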

How the data were processed

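Cy3-labelled cRNA of each sample was hybridised to 1 whole mouse genome array. The deposited scanner files hold intensity per spot, background-subtracted and detrended by Agilent Feature Extraction per the file headers, together with per-spot flags, the other kind of value used, also per the file headers. The submitters' processing notes name version 9.5.1.1, while the headers give 10.5.1.1, 10.7.3.1 and 10.7.1.1. The authors' deposited value table holds intensity with the same quantiles in every column (median 36.6, 75th percentile 488). Its columns correlated at 0.998 to 1.000 with the scanner files, and it served as an alternative.

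From the deposited processed signal, log2 values were taken and each array's own 75th percentile (43379 spots that are not controls, 52.1% to 63.8% of them well above background) was subtracted. Outlier spots were dropped, and no spot was saturated. Probes well above background on both arrays of at least 1 group were kept (26176 of 41174), and the probe with the highest mean stood for its gene. Limma 3.58.1 (R 4.3.3) fitted 6 group means to the 12 arrays (6 residual degrees of freedom) and gave two-sided adjusted p-values for 11 comparisons. The number of arrays limits the precision. A bound was taken as the bright group against the lowest signal well above background. The fit was tested on simulated data. Figures were drawn with matplotlib 3.10.9.

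Members, lists, markers and tests were chosen with earlier results of these data known. The text names the 10 members in every comparison, up to 4 called genes per list with the largest changes, and the 5 genes most correlated with Klf4, with Zfp42 and with the members' mean; single markers of other cell types are named after their values were seen, as were Etv5 and Nanog's and Tbx2's levels. The deviations of same-numbered clones had correlations of -0.15 to 0.23, which is why clone numbers were not taken as pairs.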

Additional observations from a re-analysis of the deposited data

How the results depend on the processing

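The counts of called genes were recomputed with normexp background, quantile normalization, the authors' values, no or a strict filter on dim probes, the mean of a gene's probes, every probe tested, the compared groups alone, a trended robust prior, scan day 2 alone and, added after seeing the data, the other Klf2 probe. The EB day 1 count against undifferentiated cells was 2 in place of 1 under the authors' values, quantile normalization, normexp, the strict filter, the trended prior, the compared groups alone and the mean of probes. The ML day 1 count was 3 with the mean of probes and 2 with normexp. EB against ML on day 3 gave 1 with the mean of probes, and EB day 4 against EB day 3 gave 0 with the compared groups alone. With Klf2 averaged over its probes, its EB day 3 change was -1.19 (limma adjusted p = 0.0434). The day of fall with a line of 2 log2 units became 3 for Tcl1 and 4 for Klf5 in EB and 3 for Esrrb and Tfcp2l1 in ML, while Klf2 had no day of fall, and with quantile normalization 1 for Esrrb and Tfcp2l1 in EB.

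Leaving out each array in turn, with a lone array assumed to vary like the other groups, the counts against undifferentiated cells ranged from 1 to 1 (EB day 1), 0 to 1 (ML day 1), 4 to 7 (EB day 3), 7 to 8 (ML day 3) and 9 to 10 (EB day 4). They ranged from 0 to 4 (EB day 3 against EB day 1), 3 to 7 (ML day 3 against ML day 1), 0 to 7 (EB day 4 against EB day 3), 0 to 0 and 0 to 1 (EB against ML on days 1 and 3) and 0 to 1 (difference of the day effects). In EB day 3 the count was 4 without EB day 3 clone #2, when Esrrb, Nr0b1 and Tfcp2l1 were no longer called.

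With the clone number as a replicate block, the counts were again 1, 1, 7, 7 and 10 against undifferentiated cells, 4, 5 and 6 between days, and 0, 0 and 0 between formats. From EB day 3 to EB day 4 the genes differed: Tbx3 was no longer called (adjusted p = 0.0556) and Klf5 was (-1.55, adjusted p = 0.039). The block changed the call of none of the other changes that were called or at least 1 log2 unit in size.

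Of 110 changes of single genes, 60 signs turned among 1740 recomputed values, all of changes of at most 0.43 that were not called, and none of the 61 changes that were called or at least 1 log2 unit in size turned. Klf2 in EB day 3 was the only one of the turned changes called under any setting.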
